A study of Homo sapiens with 12 samples.

Results

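The genes described here are 10 interferon-stimulated genes of the ISG15 conjugation pathway and of the PARP9 and PARP14 group: ISG15, UBE2L6, HERC5, HERC6, USP18, PARP9, DTX3L, PARP10, PARP12 and PARP14. They were taken by gene symbol from the probe annotation, which gave 16 of the 54613 probe sets that are not controls, or 10 of the 19775 genes measured by a probe set with a single gene name. Transcript levels were measured on 12 expression arrays of L1236 and L428, established cell lines of classical Hodgkin lymphoma, a B-cell tumour. The 4 groups, of 3 arrays each, were L1236 treated with 5-Aza-dC, untreated L1236, L428 treated with 5-Aza-dC, and untreated L428. Treated cells received 1 µM 5-Aza-dC for 24 h, were washed, and grew for 72 h in normal medium before RNA was taken. 5-Aza-dC, or decitabine, becomes part of newly made DNA and there traps the enzymes that methylate it. The title of the series names survival pathways activated by the drug, and the comparisons ask how these genes responded in the lines and whether the responses differed.

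ISG15 is a small ubiquitin-like protein that cells make in response to interferon. It is joined to other proteins by a cascade in which UBA7 activates it, UBE2L6 carries it as the conjugating enzyme, and HERC5 is the main human ligase. USP18 removes ISG15 from proteins and also dampens signalling at the type I interferon receptor. The PARP proteins are ADP-ribosyltransferases, which transfer ADP-ribose from NAD to their targets. PARP9 forms a complex with DTX3L, a ubiquitin ligase, while PARP10, PARP12 and PARP14 transfer single ADP-ribose units and are induced by interferon in many cell types.

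Levels are RMA log2 signals, and a change is a log2 difference ± SE from limma, called at a Benjamini-Hochberg adjusted p under 0.05 over all 19775 genes. The source name of untreated L1236 replicate 1 describes treated L428 cells while its description reads untreated L1236, so calls that change without it are marked. Treated replicate 1 of each line stood apart: the SD of its deviations from its group mean over all genes was 0.384 in L1236 and 0.449 in L428, against 0.156 to 0.315 in the other 10 arrays. In both lines treated replicate 1 was lower than the mean of the other treated arrays for 9 of the 10 genes, with a median gap in log2 signal of -0.80 in L1236 and -0.79 in L428. Over all genes that gap had a median of 0.03 in L1236 and -0.01 in L428. Treated replicate 1 was the lower for 32.6% of all genes in L1236 and for 64.7% in L428. Of the Hodgkin cell markers, TNFRSF8 (CD30) read a log2 signal of 9.47 to 9.77 in L1236 and 10.05 to 10.80 in L428. Of the 5 B-cell markers measured, MS4A1 (CD20), which Hodgkin cells often lose, read 2.43 to 2.59 on the 12 arrays. PAX5 read 11.62 to 12.94 in L1236 and 5.25 to 7.01 in L428, while POU2AF1 read 11.56 to 13.55 in L1236 and 2.35 to 2.43 in L428. In RNA from whole cultures, a change in every cell and a change in part of the cells cannot be told apart.

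Treatment raised 6 of the 10 genes in L1236, where 8.59% of all genes were called higher, and 9 of the 10 in L428, where 3.32% were. None was called lower, against 6.35% of all genes in L1236 and 1.34% in L428. The median log2 difference of the 10 genes was 1.20 in L1236, against -0.03 over all genes, and 2.88 in L428, against -0.02 over all genes. The 5 genes called in both lines were HERC5, PARP9, DTX3L, PARP12 and PARP14. In L1236 the treated arrays all lay above the untreated ones for 8 of the 10 genes (15.8% of all genes), and in L428 for 10 of the 10 (9.21% of all genes). Without both treated arrays numbered 1, 8 genes were called higher in L1236 (14.3% of all genes) and 10 in L428 (11.3% of all genes). That setting was chosen after seeing the data, and it drops arrays that were low for most of these genes. Here and below, its calls are therefore no independent support.

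**Figure D1:**
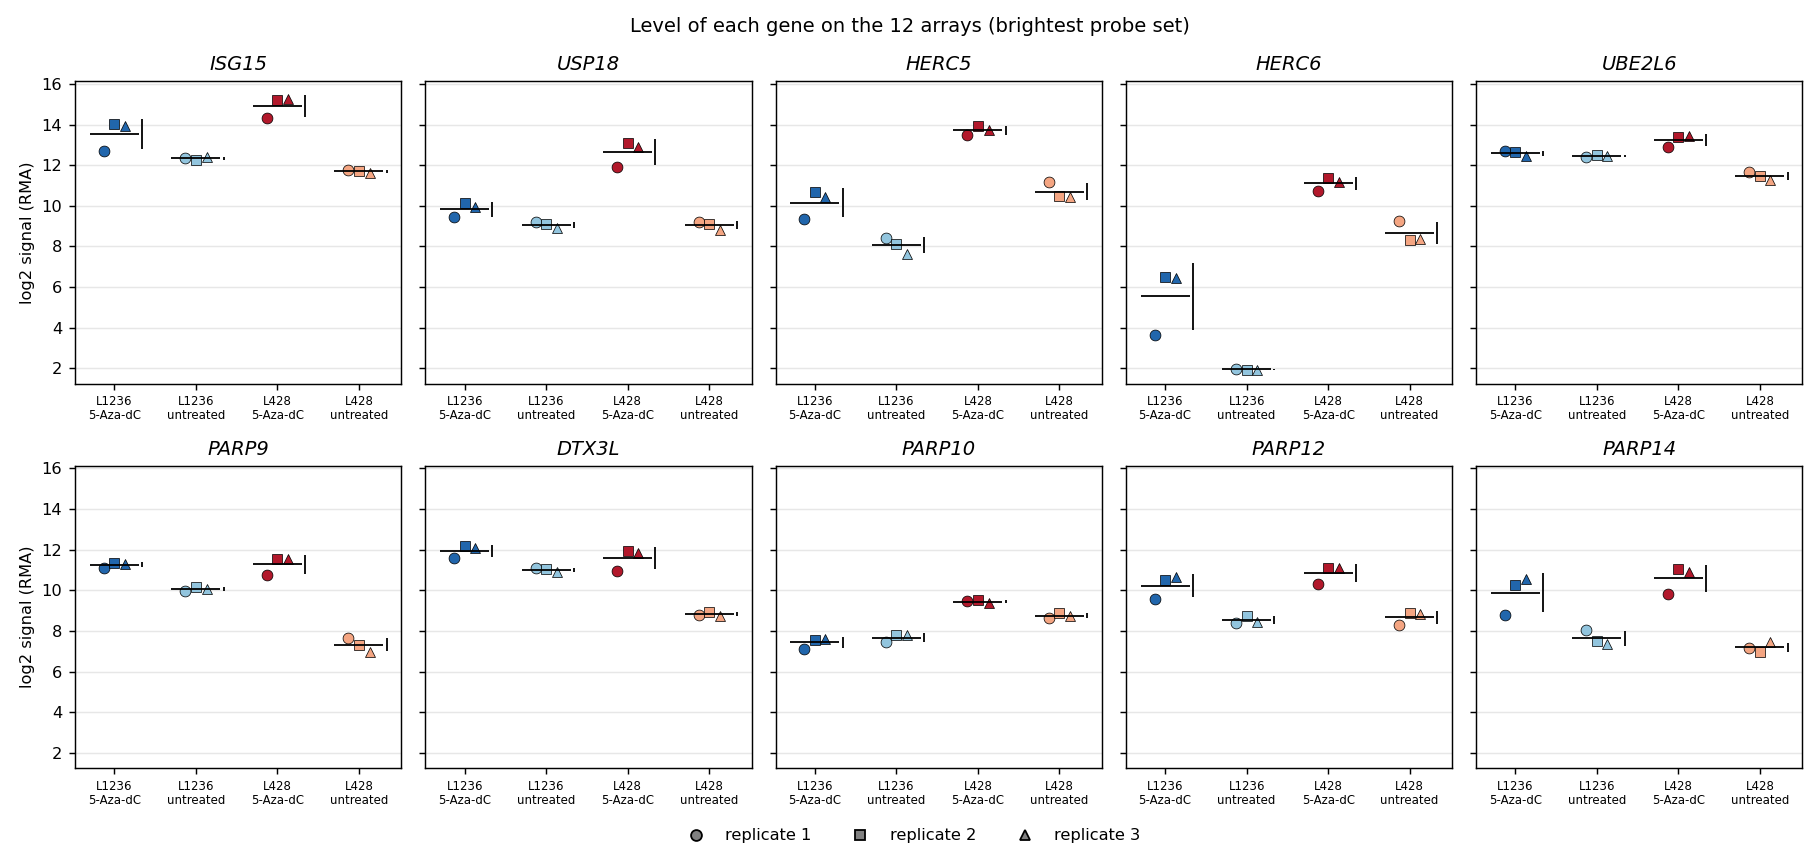
Log2 signal (vertical axis) of the brightest probe set of each gene on the 12 arrays, by group; points are single arrays, horizontal lines are group means and vertical lines are SDs (n = 3). Treated arrays lie above the untreated ones for 8 of the 10 genes in L1236 and 10 of the 10 in L428, and treated replicate 1 (circles) is the lowest of its group for most genes.

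**Figure D2:**
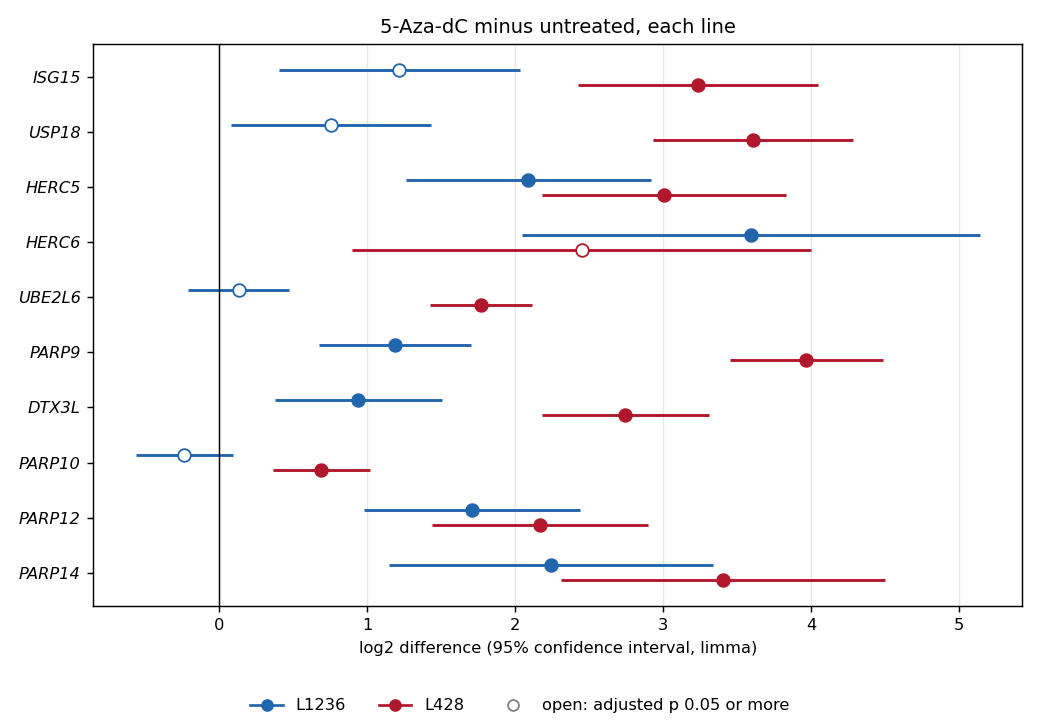
Log2 difference, treated minus untreated, of each gene in L1236 and L428 with its 95% confidence interval from limma; filled points passed an adjusted p of 0.05. The L428 point is to the right of the L1236 point for 9 of the 10 genes, HERC6 being the exception.

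Interferon-stimulated genes are typically switched on through an element in their promoters that holds spaced GAAA repeats and is bound by interferon regulatory factors. The promoter windows of RefSeq (GRCh38.p14), from 250 bases before to 50 bases after an annotated start, were searched for GAAANNGAAA and its other-strand form TTTCNNTTTC, with overlapping matches counted. Windows were matched for 8 of the 10 genes, and 6 of these 8 genes held a match: ISG15, HERC5, PARP9, DTX3L, PARP12 and PARP14. HERC6 and UBE2L6 held none in these windows, and USP18 and PARP10 were not matched to one. Counted by window, 6 of the 10 windows of these genes held a match, against 3.57% of all 35116 windows in the table. The genes were taken as interferon-stimulated genes, and PARP9 and DTX3L share 1 match, so this comparison is no test. The stretches with a match are given because the same letters recur in genes that rose, and in one case lie between a pair of them; each reads 5′ to 3′ on the gene's own strand, with the motif in capitals.
ISG15, chr1:1013362-1013421, plus strand: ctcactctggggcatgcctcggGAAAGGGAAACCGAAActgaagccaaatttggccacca
HERC5, chr4:88456972-88457031, plus strand: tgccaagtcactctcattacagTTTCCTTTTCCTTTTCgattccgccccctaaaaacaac
HERC5, chr4:88457023-88457076, plus strand: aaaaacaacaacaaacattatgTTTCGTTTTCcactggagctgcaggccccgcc
PARP9, chr3:122564310-122564363, minus strand: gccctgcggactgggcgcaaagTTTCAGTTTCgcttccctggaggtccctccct
DTX3L, chr3:122564310-122564363, plus strand: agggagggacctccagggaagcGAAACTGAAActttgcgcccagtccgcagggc
PARP12, chr7:140062930-140062983, minus strand: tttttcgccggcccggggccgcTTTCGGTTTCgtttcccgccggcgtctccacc
PARP14, chr3:122680788-122680841, plus strand: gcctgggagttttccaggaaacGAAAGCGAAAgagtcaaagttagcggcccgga

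ISG15 held 2 overlapping matches, the first beginning 113 bases before the annotated start, and HERC5 held 3, of which 2 overlap. The PARP9 and DTX3L stretches are the same piece of chromosome 3 read on opposite strands, and the match at chr3:122564332-122564341 is 1 element shared by both genes. The nearest annotated PARP9 start lies 38 bases from that of DTX3L, and the genes are transcribed away from each other; the other annotated PARP9 start, 446 bases away from the DTX3L start, held no match in its window. The element lies 41 bases before the PARP9 start and overlaps the DTX3L start. The windows of these genes held a median of 20.5 CpG dinucleotides, the sites that DNA methyltransferases methylate, against a median of 14 over all windows. A match is a description of these letters, and neither binding nor methylation at these sites was measured here.

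**Figure D3:**
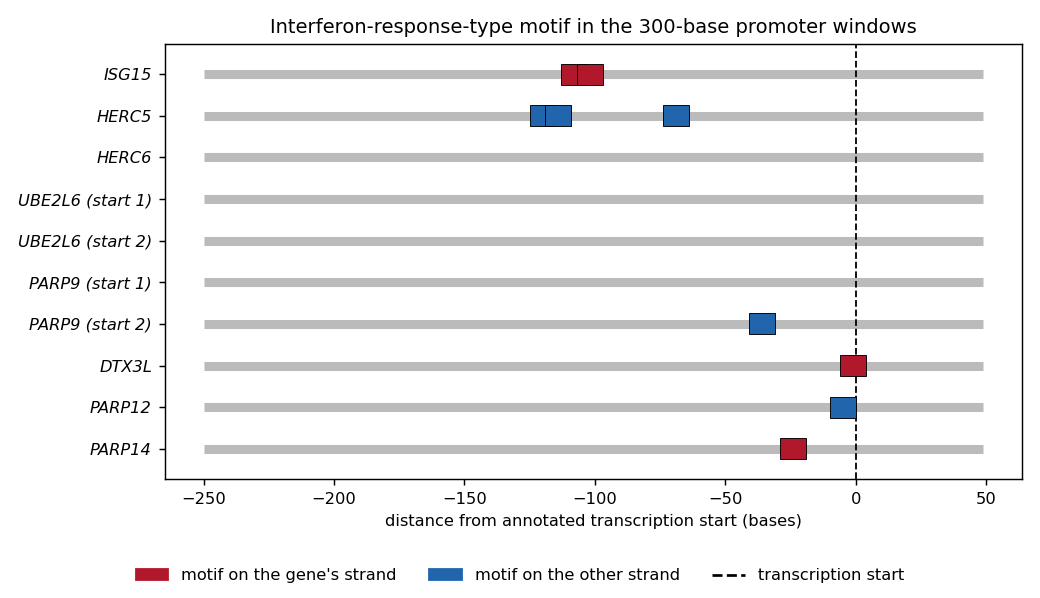
Positions of the GAAANNGAAA motif (boxes, on the gene's strand or on the other strand) in the 300-base promoter windows of 8 genes, in bases from the annotated start (dashed line). The match of DTX3L overlaps its start, that of PARP12 ends at it, and those of ISG15 and HERC5 lie farther upstream.

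ISG15 itself had a log2 signal of 12.69, 14.04 and 13.92 on the treated arrays of L1236, against 12.34, 12.27 and 12.38 on its untreated arrays. In L428 the treated arrays read log2 signals of 14.31, 15.22 and 15.25, against 11.78, 11.69 and 11.60 untreated. The groups did not overlap in either line, and in both the treated array numbered 1 was the lowest of its group. The log2 difference was 1.22 ± 0.36 in L1236, which missed the threshold (adjusted p = 0.0526), and 3.23 ± 0.36 in L428, a 9.41-fold rise (adjusted p = 0.00156). Without both treated arrays numbered 1 the L1236 difference was 1.65 and passed (adjusted p = 3.00e-06), and it also passed with only that of L1236 (0.00279) or only that of L428 (0.0282) left out. Treated L428 was highest, followed by treated L1236, untreated L1236 and untreated L428, and none of these neighbours overlapped. The response in L1236 was smaller than that in L428 by a log2 difference of -2.02 ± 0.51, which did not pass (adjusted p = 0.0622) and passed without both treated arrays numbered 1 (-1.90, adjusted p = 1.76e-05).

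UBE2L6, the ISG15-conjugating enzyme, rose in L428 but not by a detectable amount in L1236. Treated L1236 arrays read log2 signals of 12.68, 12.65 and 12.45, against 12.42, 12.52 and 12.44 untreated. Treated L428 arrays read log2 signals of 12.90, 13.39 and 13.43, against 11.67, 11.48 and 11.26 untreated. The L1236 groups overlapped, with a log2 difference of 0.13 ± 0.15 (adjusted p = 0.555, 95% confidence interval -0.21 to 0.47), while in L428 the groups were apart and the log2 difference was 1.77 ± 0.15 (adjusted p = 4.53e-04). This difference in response was itself called, at -1.64 ± 0.21 (adjusted p = 0.00398). Without treatment UBE2L6 was higher in L1236 than in L428, by a log2 difference of 0.99 ± 0.15 (adjusted p = 8.89e-04). After treatment it was lower in L1236, at -0.65 ± 0.15 (adjusted p = 0.00960), so the order of the lines was turned.

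HERC5, the ISG15 ligase, rose in both lines from different levels. In L1236 it had log2 signals of 9.34, 10.70 and 10.43 on treated arrays, against 8.41, 8.14 and 7.64 on untreated ones. In L428 the log2 signals were 13.48, 13.90 and 13.74 with treatment, against 11.16, 10.50 and 10.44 without it. Treated and untreated arrays were apart in each line, and of the treated L1236 arrays only replicate 2 reached into the range of untreated L428. Treatment gave a log2 difference of 2.09 ± 0.36 in L1236 (adjusted p = 0.00618) and 3.01 ± 0.36 in L428 (adjusted p = 0.00248). The responses differed by -0.92 ± 0.52, which did not pass the threshold (adjusted p = 0.444, 95% confidence interval -2.09 to 0.25).

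HERC6, the neighbour of HERC5 on chromosome 4, encodes a related HECT-type ligase that is the main ISG15 ligase in mouse. Its log2 signal was 3.64, 6.51 and 6.47 in treated L1236, against 1.98, 1.93 and 1.94 in untreated L1236. In L428 it was 10.73, 11.39 and 11.18 with treatment, against 9.26, 8.34 and 8.36 without it. The untreated L1236 values lie at the low end of the scale, where 39.1% of all probe sets stayed below 3 on every array, so the size of a fold from there is uncertain. The log2 difference in L1236 was 3.59 ± 0.68 (adjusted p = 0.00931), the largest of the 10 genes in that line, and it rested unevenly on the arrays, treated replicate 1 being 2.85 below the mean of the other treated arrays. In L428 the arrays did not overlap, but the log2 difference of 2.45 ± 0.68 missed the threshold (adjusted p = 0.0829). It passed when treated L1236 replicate 1 was left out (adjusted p = 0.00207), as did the difference in response (1.14 ± 0.97 and adjusted p = 0.689 with all arrays, 0.0130 without that one). The 2 lines were far apart for this gene: HERC6 was lower in L1236 by a log2 difference of -5.56 ± 0.68 with treatment (adjusted p = 2.31e-04) and of -6.71 ± 0.68 without it (adjusted p = 7.08e-05). A second HERC6 probe set read 2.11 to 2.20 on the 12 arrays.

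USP18, the enzyme that takes ISG15 off its targets, separated the lines after treatment. The treated L1236 arrays had log2 signals of 9.43, 10.12 and 9.93, against 9.21, 9.09 and 8.91 untreated. Treated L428 arrays had log2 signals of 11.92, 13.10 and 12.92, against 9.19, 9.11 and 8.82 untreated. The untreated arrays of the lines overlapped, and every treated L428 array lay above every treated L1236 array. In L1236 the arrays were apart but the log2 difference of 0.76 ± 0.30 missed the threshold (adjusted p = 0.131), passing without both treated arrays numbered 1 (0.95, adjusted p = 0.00221) and without that of L428 alone (0.0240). In L428 the log2 difference was 3.61 ± 0.30, a 12.2-fold rise (adjusted p = 3.91e-04). The response was smaller in L1236 by a log2 difference of -2.85 ± 0.42 (adjusted p = 0.00776), close to the gap of PARP9. Between the treated lines the log2 difference was -2.82 ± 0.30 (adjusted p = 9.04e-05), against 0.03 ± 0.30 between the untreated lines (adjusted p = 0.972, 95% confidence interval -0.65 to 0.71). The USP18 gene has near-identical copies in the human genome, so its signal may include theirs.

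PARP9 had the largest rise of the 10 genes in L428. Its log2 signal was 11.12, 11.35 and 11.30 in treated L1236, against 9.98, 10.16 and 10.06 in untreated L1236. In L428 it was 10.75, 11.54 and 11.57 with treatment, against 7.64, 7.33 and 6.99 without it. All treated arrays of a line lay above its untreated ones, the treated arrays of the lines overlapped, and the untreated arrays of the lines did not. Its log2 difference was 1.19 ± 0.23 in L1236 (adjusted p = 0.00941) and 3.97 ± 0.23 in L428, a 15.6-fold rise (adjusted p = 4.37e-05). The response was smaller in L1236, by -2.78 ± 0.32 (adjusted p = 0.00212). Without treatment PARP9 was 6.71-fold higher in L1236, a log2 difference of 2.75 ± 0.23 (adjusted p = 1.74e-05). After treatment the log2 difference between the lines was -0.03 ± 0.23 (adjusted p = 0.924), with a 95% confidence interval of -0.54 to 0.49. A dimmer second PARP9 probe set moved the same way, with log2 differences of 1.13 ± 0.34 in L1236 (adjusted p = 0.0788 over all probe sets) and 2.98 ± 0.34 in L428 (adjusted p = 0.00260 over all probe sets). On that probe set the L1236 groups overlapped. Its difference in response was -1.85 ± 0.48, which did not pass (adjusted p = 0.101 over all probe sets).

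DTX3L, the partner of PARP9 whose start lies next to the PARP9 start, also rose in both lines and more so in L428. In treated L1236 the log2 signals were 11.61, 12.16 and 12.08, against 11.08, 11.06 and 10.90 in untreated L1236. In treated L428 they were 10.95, 11.94 and 11.83, against 8.80, 8.94 and 8.74 in untreated L428. As for PARP9, the treated lines overlapped and untreated L428 lay far below untreated L1236. Unlike for PARP9, the mean was highest in treated L1236, and the lowest treated L428 array lay within the range of untreated L1236. Treatment raised it by a log2 difference of 0.94 ± 0.25 in L1236 (adjusted p = 0.0356) and 2.74 ± 0.25 in L428 (adjusted p = 5.45e-04). Between responses the log2 difference was -1.80 ± 0.35 (adjusted p = 0.0247). The L1236 call was lost on leaving out any 1 of 7 arrays (adjusted p of 0.0546 to 0.130): untreated L1236 replicates 1, 2 or 3, treated L1236 replicates 2 or 3, or untreated L428 replicates 2 or 3. Without untreated L1236 replicate 1, whose labels conflict, it was 0.0732. The call on the difference in response was lost without that array too (adjusted p = 0.0527), and likewise without untreated L1236 replicates 2 or 3 or replicates 2 or 3 of either L428 group. Untreated DTX3L was higher in L1236 by a log2 difference of 2.18 ± 0.25 (adjusted p = 1.45e-04), and the treated lines differed by 0.38 ± 0.25 (adjusted p = 0.300, 95% confidence interval -0.19 to 0.94).

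PARP14, which carries macrodomains that bind ADP-ribose beside its transferase domain, rose in both lines. Treated L1236 arrays had log2 signals of 8.80, 10.27 and 10.58, against 8.04, 7.51 and 7.37 untreated. Treated L428 arrays had log2 signals of 9.82, 11.05 and 10.92, against 7.18, 6.97 and 7.44 untreated. The groups were apart within each line, the treated lines overlapped with each other, and so did the untreated lines. The log2 difference was 2.24 ± 0.48 in L1236 (adjusted p = 0.0158) and 3.40 ± 0.48 in L428 (adjusted p = 0.00559), and the responses differed by -1.16 ± 0.68 (adjusted p = 0.470, 95% confidence interval -2.70 to 0.39). The L1236 call was lost without untreated replicate 2 or 3 or treated replicate 2 or 3 of that line (adjusted p of 0.0564 to 0.0673). A second PARP14 probe set read 2.35 to 2.39 on the 12 arrays.

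PARP12, a zinc-finger PARP with antiviral activity, rose in both lines, and no difference between the responses was detectable. Its log2 signals were 9.56, 10.50 and 10.64 in treated L1236, against 8.40, 8.76 and 8.42 in untreated L1236. In L428 they were 10.33, 11.10 and 11.12 with treatment, against 8.31, 8.90 and 8.83 without it. Treated arrays were above untreated ones throughout, and the lines overlapped both with and without treatment. Its log2 difference was 1.71 ± 0.32 in L1236 (adjusted p = 0.00898) and 2.17 ± 0.32 in L428 (adjusted p = 0.00705). Between responses it was -0.46 ± 0.46 (adjusted p = 0.754), with a 95% confidence interval of -1.49 to 0.57 that leaves room for a gap in either direction. Treated L1236 was lower than treated L428 by -0.61 ± 0.32 (adjusted p = 0.203), a difference that passed with replicate number as a block (adjusted p = 0.0306).

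PARP10, a mono-ADP-ribosyltransferase, had the smallest rise of the 10 genes in L428 and was not called in L1236. Its brightest probe set had log2 signals of 7.13, 7.57 and 7.63 in treated L1236, against 7.44, 7.78 and 7.81 in untreated L1236. In L428 it read 9.49, 9.50 and 9.36 with treatment, against 8.65, 8.88 and 8.76 without it. The L1236 groups overlapped and the L428 groups did not. The log2 difference was -0.23 ± 0.14 in L1236 (adjusted p = 0.307, 95% confidence interval -0.56 to 0.09) and 0.69 ± 0.14 in L428 (adjusted p = 0.0322). The responses differed by -0.92 ± 0.20 (adjusted p = 0.0389). Both calls depended on single arrays: the L428 rise was lost on leaving out any 1 of 7 arrays (adjusted p of 0.0513 to 0.119) and the difference in response on leaving out any 1 of 8 (0.0615 to 0.101). The 7 arrays were the 3 untreated L428 arrays, treated L428 replicates 2 and 3, and replicate 2 of each L1236 group, and the eighth was untreated L1236 replicate 3. A second PARP10 probe set had a log2 difference of 0.24 ± 0.35 in L1236 and of 0.75 ± 0.35 in L428 (adjusted p = 0.633 and 0.333 over all probe sets), and the other 2 stayed between 1.96 and 2.29 on the 12 arrays.

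Across the 10 genes, the response was smaller in L1236 than in L428 for 5 (UBE2L6, USP18, PARP9, DTX3L and PARP10) and larger for none, where 1.96% of all genes were called lower and 2.66% higher. The median of the difference in response was -1.40, against -0.01 over all genes. Without both treated arrays numbered 1 the count was 7, of which 6 were smaller in L1236, ISG15 being added, and HERC6 was larger (1.91, adjusted p = 0.0147). In that setting 8.31% of all genes were called lower and 8.26% higher. The mean log2 signal of the 10 genes was 9.60, 10.59 and 10.54 on treated L1236 arrays and 8.93, 8.92 and 8.79 on untreated L1236 arrays. It was 11.47, 12.21 and 12.13 on treated L428 arrays and 9.36, 9.21 and 9.12 on untreated L428 arrays. The mean includes HERC6, at -6.71 for untreated L1236 minus untreated L428, whereas the median of that log2 difference over the 10 genes was 0.24.

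The lines differed in which genes they held high before treatment. In untreated cells UBE2L6, PARP9 and DTX3L were higher in L1236 (3 of 10, against 15.2% of all genes), and HERC5, HERC6 and PARP10 were lower in L1236 (3 of 10, against 13.6% of all genes). With so many differences between the lines over all genes, these counts are not a result about the 10 genes. After treatment none was called higher in L1236 and 6 were lower (ISG15, UBE2L6, HERC5, HERC6, USP18 and PARP10), where 16.7% of all genes were called higher and 14.5% lower. PARP10 was lower in L1236 by a log2 difference of -2.01 ± 0.14 with treatment (adjusted p = 7.83e-06) and of -1.08 ± 0.14 without it (adjusted p = 3.97e-04). ISG15 was lower in treated L1236 by -1.38 ± 0.36 (adjusted p = 0.0165), a call lost without treated L428 replicate 2 or 3 (0.0601 and 0.0622). Treated L428 had the highest mean of the 4 groups for 9 of the 10 genes, DTX3L being highest in treated L1236. The lowest group was untreated L428 for 6 genes, untreated L1236 for 3 and treated L1236 for PARP10, and of the 30 pairs of neighbouring groups in these orders 11 overlapped. Such orders were not counted over all genes, so these counts describe the 10 genes and do not set them apart.

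**Figure D4:**
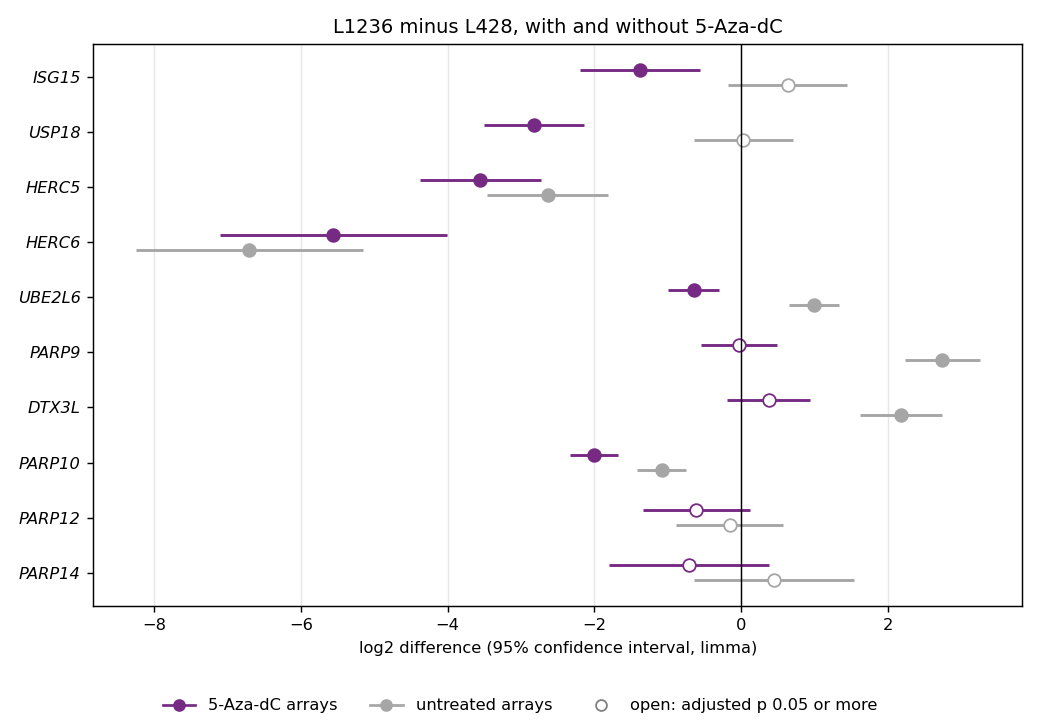
Log2 difference, L1236 minus L428, of each gene on the treated and on the untreated arrays with its 95% confidence interval from limma; filled points passed an adjusted p of 0.05. PARP9 and DTX3L lie to the right of 0 on untreated arrays and have intervals that include 0 on treated arrays, while USP18 and ISG15 pass only on treated arrays.

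Counted over all probe sets rather than 1 per gene, 5 of the 16 probe sets were called higher in L1236 (4.58% of all probe sets; 1 to 8 with 1 array left out) and 10 of the 16 in L428 (1.82% of all probe sets). Of the treated minus untreated gene calls, DTX3L in L1236 was the one that did not pass at this level (adjusted p = 0.0501). The PARP10 difference in response did not pass at this level either (adjusted p = 0.0555). For the second PARP10 probe set that difference was -0.51 ± 0.49 (adjusted p = 0.833). Of the 16 probe sets, 4 stayed below a log2 signal of 3 on every array and carry no information on a change.

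Most other genes of the same families did not pass the test. Of 13 other PARP family genes, 1 rose and 2 fell in L1236 and 1 rose in L428, while 6 and 4 had an unadjusted p under 0.05. Their median log2 difference was -0.04 in L1236 and 0.07 in L428. PARP3, a DNA-repair PARP, rose in L1236 (0.81 ± 0.15, adjusted p = 0.00725), whereas TNKS, which encodes tankyrase, and PARP16, of the endoplasmic reticulum, fell there (-1.12 ± 0.31, adjusted p = 0.0446, and -0.55 ± 0.14, adjusted p = 0.0350). The TNKS call was lost without any 1 of 9 arrays, all but the untreated L428 and the treated arrays numbered 1 (0.0514 to 0.159). The PARP16 call was lost without any 1 of 7: untreated L1236 replicates 1 or 2, treated L1236 replicates 2 or 3, untreated L428 replicates 2 or 3, or treated L428 replicate 3 (0.0505 to 0.131). Both losses include untreated L1236 replicate 1, whose labels conflict. PARP8 rose in L428 (1.58 ± 0.27, adjusted p = 0.0134), a call lost without untreated replicate 2 or treated replicates 2 or 3 of that line (0.0561 to 0.0599). ZC3HAV1, the zinc-finger antiviral protein PARP13, had log2 differences of 0.16 ± 0.22 in L1236 and 0.15 ± 0.22 in L428 (adjusted p = 0.631 and 0.734), and TIPARP had 0.58 ± 0.20 and 0.13 ± 0.20 (adjusted p = 0.0818 and 0.744), and TIPARP in L1236 passed without untreated L1236 replicate 1, whose labels conflict (0.0185). PARP15 lies between DTX3L and PARP14 on chromosome 3, in a run of consecutive protein-coding genes with PARP9. Its 2 probe sets read log2 signals of 2.11 to 2.51 on the 12 arrays, at the low end of the scale, so no response of PARP15 was detectable while its neighbours on either side rose in both lines.

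**Figure D5:**
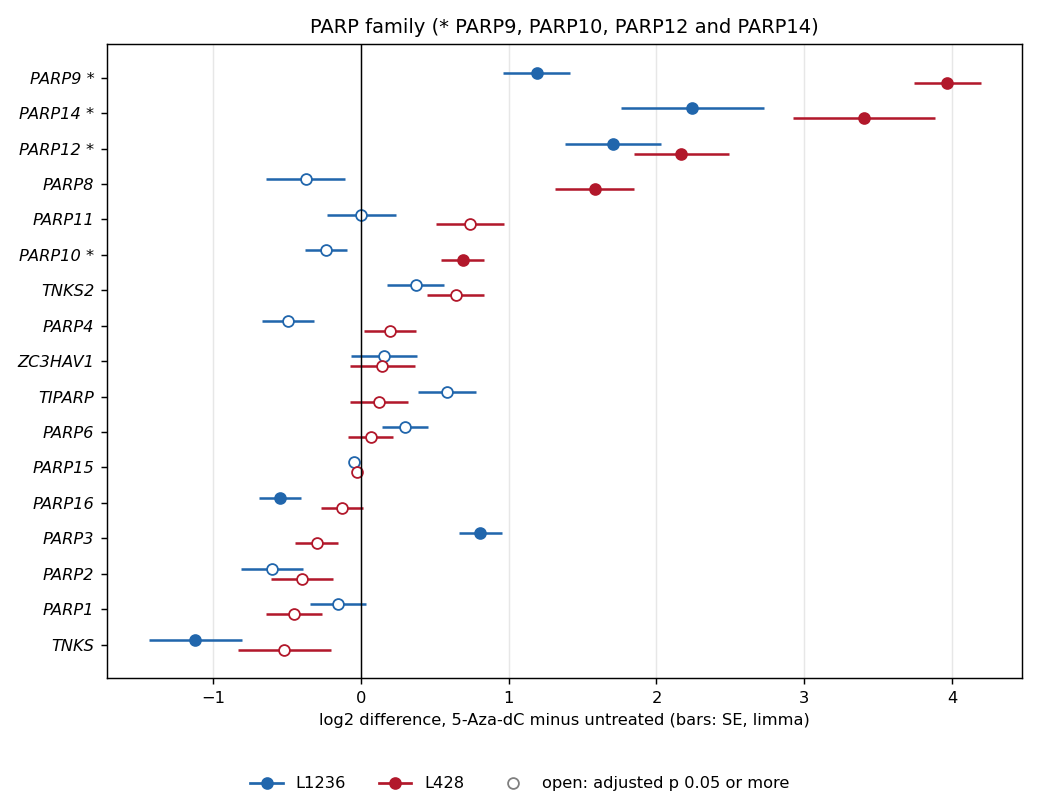
Log2 difference, treated minus untreated, of the 17 PARP family genes measured, in L1236 and L428, with the SE from limma; filled points passed an adjusted p of 0.05. PARP9, PARP14 and PARP12 have the 3 largest differences in each line, and most other genes lie near 0.

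In the ISG15 cascade, 4 of 6 further enzymes were measured. TRIM25, a ubiquitin ligase of RIG-I signalling, rose in L428 (1.41 ± 0.27, adjusted p = 0.0217), with 0.40 ± 0.27 in L1236 (adjusted p = 0.350). The L428 call was lost without replicates 2 or 3 of either L428 group (0.0561 to 0.0918). UBE2E2, a conjugating enzyme, rose in L1236, with log2 signals of 5.70 to 6.83 in treated cells, against 3.96 to 4.66 untreated (adjusted p = 0.00199). ARIH1, a ligase, rose there by 0.70 ± 0.13 (adjusted p = 0.00905), a change that was -0.084 when all its probe sets were averaged (adjusted p = 0.543). Probe sets of UBA7, the activating enzyme, carry several gene names and were not analysed here. None of 3 other HERC genes, 4 other DTX genes or 6 enzymes that remove ADP-ribose passed the test in limma in either line; at an unadjusted p under 0.05 there were 1, 0 and 0 in L1236 and 2, 1 and 1 in L428. Among 6 genes that supply NAD, the substrate of the PARPs, NAMPT rose (1.69 ± 0.47, adjusted p = 0.0442) and NMNAT3 fell (-1.84 ± 0.50, adjusted p = 0.0391) in L1236, and none passed in L428, where 1 had an unadjusted p under 0.05. Both L1236 calls depended on single arrays: that for NAMPT was lost without any 1 of 10 arrays, all but the treated ones numbered 1 (0.0510 to 0.158). That for NMNAT3 was lost without any 1 of 9 of those 10, all but untreated L428 replicate 1 (0.0527 to 0.144). Untreated L1236 replicate 1, whose labels conflict, was among the arrays in both cases.

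Some genes that act upstream of these in interferon signalling rose as well. Of 10 signalling genes measured, 5 rose in L1236 and 4 in L428, with a median log2 difference of 0.51 in L1236 and 0.37 in L428, and none fell. IRF7, the transcription factor that amplifies interferon production, rose by 2.75 ± 0.49 in L1236 (adjusted p = 0.00716) and 4.76 ± 0.49 in L428 (adjusted p = 0.00113). IRF9, another interferon regulatory factor, rose by 1.61 ± 0.43 in L1236 (adjusted p = 0.0381) and 3.41 ± 0.43 in L428 (adjusted p = 0.00308). Its L1236 call was lost without any 1 of 6 arrays: replicates 2 or 3 of either L1236 group, or replicate 3 of either L428 group (0.0543 to 0.138). IRF1 rose by 2.38 ± 0.31 in L1236 (adjusted p = 0.00156) and 1.51 ± 0.31 in L428 (adjusted p = 0.0311). Its L428 call was lost without any 1 of 8 arrays: any untreated L428 array, treated L428 replicates 2 or 3, untreated L1236 replicates 2 or 3, or treated L1236 replicate 2 (0.0522 to 0.128). Of 9 interferon genes, none was called in L1236 in limma, where 1 had an unadjusted p under 0.05. In L428, 3 rose, and 4 had an unadjusted p under 0.05. IFNL1, a type III interferon, read log2 signals of 6.96 to 8.19 in treated L428, against 2.28 to 2.31 untreated, and IFNB1, a type I interferon, read 5.38 to 8.51, against 2.44 to 2.49. Treated L1236 arrays read 2.29 to 5.15 for IFNL1 and 2.44 to 4.94 for IFNB1, against 2.27 to 2.32 and 2.44 to 2.46 untreated. Without treated L1236 replicate 1, IFNL1 was called higher in L1236 (adjusted p = 4.98e-04). The L428 call for IFNB1 was lost without treated L428 replicate 2 or 3 (0.0552 and 0.0588). IFNL2, which is nearly identical to IFNL3, read 7.90 to 9.35 in treated L428, against 2.23 to 2.27 untreated, and 2.18 to 2.22 in treated L1236, against 2.22 to 2.23 untreated.

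Markers of the cells and of other cell types moved in part with treatment. Of 6 Hodgkin cell markers, CCL17, CD70 and CD40 rose in L1236 (3.01 ± 0.20, 1.52 ± 0.25 and 1.35 ± 0.31, adjusted p = 2.68e-05, 0.00494 and 0.0208) and none passed in L428, where 2 had an unadjusted p under 0.05. Their summed log2 signal was 69.6 to 73.3 in treated L1236, against 64.1 to 64.8 untreated, and 66.9 to 67.3 in treated L428, against 63.8 to 67.0 untreated. The CD40 call was lost without replicates 2 or 3 of either L1236 group (0.0718 to 0.0804). Of 5 B-cell markers, CD79B rose in L1236 (0.81 ± 0.22, adjusted p = 0.0409) and PAX5 in L428 (1.22 ± 0.28, adjusted p = 0.0445). In L1236 the log2 difference was -1.18 ± 0.40 for POU2AF1 (adjusted p = 0.0797) and 0.83 ± 0.28 for PAX5 (adjusted p = 0.0825), and neither passed in limma. At an unadjusted p under 0.05 there were 3 of the 5 in L1236 and 1 in L428. The sum was 35.4 to 36.9 in treated L1236, against 35.2 to 36.0 untreated, and 18.6 to 20.0 in treated L428, against 17.9 to 18.1 untreated. Both calls were lost without any 1 of 10 arrays, all but the treated ones numbered 1, so that untreated L1236 replicate 1 was among them (0.0540 to 0.118 for CD79B and 0.0569 to 0.163 for PAX5). Among 8 T and NK cell markers, CD8A and CD3D rose in L1236 and CD2 rose in L428, and the summed log2 signal of the 8 was 26.9 to 28.3 in treated L1236, against 20.0 to 20.7 untreated, and 23.4 to 26.1 in treated L428, against 20.3 to 22.1 untreated. The T-cell receptor component CD3E read 1.74 to 1.77 on the 12 arrays. Among 6 myeloid and dendritic cell markers, CLEC4C rose in L1236, with sums of 20.3 to 21.0 in treated L1236, against 18.4 to 18.9 untreated, and 18.5 to 19.7 in treated L428, against 17.9 to 18.6 untreated. The CLEC4C call was lost without untreated L1236 replicate 1, whose labels conflict (0.0517), or replicate 3 (0.0642). CD14 read 2.25 to 2.32 throughout. Among 7 stromal and endothelial markers, COL1A1 and VWF rose in L1236, with sums of 33.8 to 34.8 in treated L1236, against 31.7 to 32.6 untreated, and 28.1 to 29.5 in treated L428, against 28.0 to 28.8 untreated. The VWF call was lost without untreated L1236 replicate 2 or 3 (0.0577 and 0.0596). COL1A2 stayed between 2.42 and 2.55. The part of these markers in the results was not tested.

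The 5 genes outside the set whose profile over the 12 arrays came closest to the mean profile of the 10 were SP110, a nuclear body protein, IFI35, LINC00513, USP30-AS1 and IFIH1, which encodes the RNA sensor MDA5. Their root mean square distance in log2 signal, after each profile was centred, was 0.268, 0.281, 0.353, 0.385 and 0.385. These genes were taken for their small distance, so it is no test. The distances of the 10 genes from their own mean profile ran from 0.397 for ISG15 and 0.439 for PARP12 to 1.29 for PARP9 and 2.72 for HERC6. ISG15, PARP12 and USP18 thus followed the common profile most closely, and HERC6 least.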

How the data were processed

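Per the submitters' processing notes, the authors summarised the arrays with RMA, and the deposited table holds the resulting log2 signals by probe set and array. The RMA version, and whether all arrays were normalized together, are not given in the sources used here. Detection calls were not used. The labels speak of a whole-transcript assay, but the probe sets are named as on 3′ arrays, and those names were used. Of 54675 probe sets, 62 are controls, and 41091 carry 1 gene name, 1801 several and 11721 none in the platform annotation; names were updated through RefSeq (GRCh38.p14). The brightest probe set over all arrays stood for each gene, with no filter on dim genes.

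Groups came from the sample descriptions. A linear model of 4 group means was fitted to all 12 arrays with limma 3.58.1 in R 4.3.3 (lmFit, eBayes), two-sided, with Benjamini-Hochberg adjustment over 19775 genes or 54613 probe sets. Nothing beyond the word triplicate describes the replicates, so the p-values rest on the spread between these arrays alone, which may be technical, and 3 arrays per group limit the precision. In simulated data for the L428 comparison on 19775 genes, 62% of added log2 changes of 1 and 90% of those of 2 were recovered, with 12 false calls. The simulated noise was independent between arrays and 100 genes were changed by each amount, so these rates need not hold for the arrays here. Alternatives were other normalizations, probe set choices and filters, array weights, the replicate block, and leaving out arrays. Same-numbered arrays deviated together between treated and untreated L428 (r over all genes of 0.164 to 0.250) but not in L1236 (-0.018 to 0.063). Between the lines at the same treatment r was 0.107 to 0.400. It was 0.051 to 0.235 between untreated L428 and treated L1236, and -0.122 to 0.021 between treated L428 and untreated L1236. Arrays of unequal number were not compared, so the numbers may pair some samples but this is not settled. The main fit used no block.

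All 10 genes are named, with all their probe sets. From each further list the rule names up to 3 called genes of largest change per line and 9 preset genes, and from the markers the genes that define a cell type; the 5 genes of most similar profile were also named. The genes, lists and rule were chosen with earlier results of these data known.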

Additional observations from a re-analysis of the deposited data

Results flagged for a closer look

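A difference between the L1236 and L428 responses, tested as an interaction in limma, was called for 5 of the 10 genes, with the log2 difference given as L1236 minus L428: USP18 at -2.85 (adjusted p = 0.00776), PARP9 at -2.78 (0.00212), DTX3L at -1.80 (0.0247), UBE2L6 at -1.64 (0.00398) and PARP10 at -0.92 (0.0389). Of these, DTX3L and PARP10 lost the call when certain single arrays were left out. PARP10 also lost it with adjustment over all probe sets (0.0555). Among the other named genes it was called for IFNL2 at -6.20 (adjusted p = 1.09e-04) and PARP8 at -1.96 (0.0247), which responded less in L1236. UBE2E2 at 1.82 (0.0348), PARP3 at 1.11 (0.0207), the chemokine gene CCL17 at 2.29 (0.00298), CD8A at 3.37 (9.15e-05), CD3D at 2.72 (0.0389) and COL1A1 at 2.07 (0.0364) had a larger difference, treated minus untreated, in L1236. Several of these calls were lost when single arrays were left out: UBE2E2 for any 1 of 10 arrays (0.0517 to 0.0907), CD3D and COL1A1 for any 1 of 9 each (0.0520 to 0.102 and 0.0602 to 0.0941), PARP8 for any 1 of 8 (0.0519 to 0.0643) and PARP3 for any 1 of 3 (0.0542 to 0.0605). For these, PARP3 apart, untreated L1236 replicate 1, whose labels conflict, was among them. The untreated levels of IFNL2 and CD8A were near the low end of the scale in both lines.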

How the results depend on the processing

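No called difference of the 10 genes changed direction under any alternative run, while those near 0 of USP18 between untreated lines and of PARP9 between treated lines took either sign. Of 1140 recomputed values, 1057 kept their side of the threshold, 47 lost the call and 36 gained it. Leaving out 1 array at a time gave 4 to 8 called genes in L1236, 8 to 10 in L428, 5 to 6 between treated lines and 6 between untreated lines. The count for the difference in response ranged from 3 to 7. Over probe sets the L1236 count ranged from 1 to 8, and it was 9 without the 4 arrays numbered 1, 8 without both treated arrays numbered 1 (an alternative chosen after seeing the data) and 8 without probe sets below the median level. With replicate number as a block the counts were 7 in L1236 and 9 in L428, 5 for the difference in response, 7 and 6 between treated and between untreated lines, and ISG15 in L1236 passed (adjusted p = 0.0375). Apart from ISG15 and PARP12, the block changed no other call among the 10 genes. With only the arrays a contrast names, 4 genes were called in L1236 and 8 in L428. The difference in response needs all 4 groups and was not run so. The share of all genes called also moves with the setting. In L428, 3.32% of all genes were called higher with all arrays and 11.3% without both treated arrays numbered 1. The counts in this paragraph are given without such shares, so they describe only how far the calls hold. Among the other named genes ARIH1 in L1236 turned to -0.084 (adjusted p = 0.543) when all probe sets of a gene were averaged; the cause was not tested. Array weights did not fully converge. Without scanner files or detection calls, levels near 2 cannot be told from background.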
